A study of Mus musculus with 8 samples.

Results

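The weak intervals of a Bcl11b ChIP-seq experiment in mouse thymocytes were those with reads in the deposited count table that were absent from the deposited normalized table. They numbered 30610 of 93708 intervals of 201 bp, and the normalized table held the other 63098. Chromatin was compared between 3 ChIP libraries from Bcl11b+/N440K thymocytes, which carry 1 wild-type allele and 1 allele encoding the N440K variant, and 3 from Bcl11b+/+ thymocytes, all made with the same rabbit anti-Bcl11b antibody. The labels also list 2 inputs from +/+ cells, which were not analysed here, so enrichment over input was not measured. The labels give neither the animals' age or sex nor whether libraries of a genotype came from separate animals, so the p-values reflect variation among these 6 libraries alone, and that variation could be technical. Library totals over all intervals were 1997125, 1812952 and 2123877 reads in the +/N440K libraries and 1787899, 2661343 and 2579988 in the +/+ libraries. Levels are given as CPM, reads scaled to that total, and 1 read was worth 0.376 to 0.559 CPM depending on the library.

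Bcl11b, a transcription factor with zinc fingers, is needed by T-cell precursors to commit to the T lineage, and in thymocytes it helps keep natural killer and innate programmes off. It binds DNA directly and works with chromatin-modifying cofactors such as the NuRD complex. Its paralogue BCL11A binds the word TGACCA in human cells, and RUNX and ETS factors, whose cores include TGTGGT and CAGGAA, occupy many thymocyte enhancers. The antibody was raised against Bcl11b, and the labels do not say whether it tells the variant protein from the wild-type one. The reads could therefore come from both proteins, and how well the antibody binds each was not measured.

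Sequence could be read for the weak intervals that overlapped a RefSeq promoter window (250 bases before to 50 after a gene's start, GRCm38.p6, the coordinates of mm10) by at least 100 bases. There were 768 of these, or 2.51% of weak intervals, against 6892 or 10.9% of the intervals of the normalized table. Among the 179 weak intervals called different between genotypes below, 8 lay in such a window. The part of the interval that lies before the gene's start is printed for 5 of them, chosen as the sequences behind a difference called higher, a difference called lower, and the chromosome Y reads of 1 library. Capitals mark the BCL11A word TGACCA, its 1-letter variant TGGCCA, the RUNX word TGTGGT and the ETS word CAGGAA, each searched on both strands, and no match overlapped another.
Gm6093, chr13:33569444-33569567, minus strand, higher in +/N440K: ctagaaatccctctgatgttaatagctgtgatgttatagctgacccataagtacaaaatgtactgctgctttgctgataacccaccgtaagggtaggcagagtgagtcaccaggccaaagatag
Lypd1, chr1:125912215-125912269, minus strand, higher in +/N440K: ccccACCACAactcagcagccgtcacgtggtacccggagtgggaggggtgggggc
Klk1b22, chr7:44112423-44112598, plus strand, higher in +/N440K: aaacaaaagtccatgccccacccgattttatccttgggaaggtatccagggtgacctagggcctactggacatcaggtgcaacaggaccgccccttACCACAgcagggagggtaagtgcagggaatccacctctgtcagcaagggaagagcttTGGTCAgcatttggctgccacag
Cdk5r2, chr1:74854779-74854966, plus strand, lower in +/N440K: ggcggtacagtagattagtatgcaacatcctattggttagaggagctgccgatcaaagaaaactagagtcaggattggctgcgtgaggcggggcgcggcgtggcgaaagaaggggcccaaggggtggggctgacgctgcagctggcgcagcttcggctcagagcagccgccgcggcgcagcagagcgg
Eif2s3y, chrY:1010353-1010553, plus strand, reads in 1 +/N440K library: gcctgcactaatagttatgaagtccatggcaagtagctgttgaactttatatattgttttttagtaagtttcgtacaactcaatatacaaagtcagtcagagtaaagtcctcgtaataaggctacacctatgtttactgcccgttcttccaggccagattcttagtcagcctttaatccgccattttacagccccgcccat
The Klk1b22 stretch, before a kallikrein-family serine protease gene, held TGACCA and TGTGGT as their reverse complements TGGTCA and ACCACA. Lypd1, which encodes a Ly6-family modulator of nicotinic receptors, had ACCACA once. The other 3 printed stretches held none of the searched words. Nor did those not printed, at Gm30938 and Gm39322 (both called lower in +/N440K) and at Kdm5d on Y. This says only that these letters are not in these windows. Among all 32851 windows, 13.6% held TGACCA, 11.3% TGGCCA, 16.8% TGTGGT and 30.6% CAGGAA. In the 798 windows that met a weak interval and none of the normalized table the shares were 13.0%, 13.3%, 17.4% and 30.7% for the same 4 words. In the 7888 windows that met an interval of the normalized table they were 11%, 11.5%, 12.7% and 27.0%. The weak-interval windows had a median GC content of 59.3% and 14 CpG dinucleotides, against 62.7% and 23 in windows of the normalized table and 49.7% and 4 in the 24165 windows that met no interval.

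One library stood apart on chromosome Y. On Y below 2 Mb, 6 intervals held 214 reads in +/N440K replicate 1. They held 2 and 0 reads in +/N440K replicates 2 and 3, and 0, 0 and 1 in the +/+ libraries. Some lay at Kdm5d, Eif2s3y and Ddx3y, genes for a histone demethylase, a translation initiation factor subunit and an RNA helicase. Of the 214 reads, 76 were in the interval from 259079, with no gene within 100 kb. Another 42 were in that from 145739, 31.8 kb from LOC665918. The upper part of Y did not separate this library, since 3 weak intervals above 90 Mb had 28, 13 and 21 reads in +/N440K and 16, 38 and 20 in +/+ libraries. These 6 intervals entered the counts of calls below and are counted apart there.

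The intervals were left out of the normalized table for their level, without regard to genotype. An interval stayed in the table when it passed 4.85 CPM, which is 10 reads at the median library total, in at least 3 of the 6 libraries, and no weak interval did. Members were thus selected on the third highest CPM of the 6 libraries. At the edge, an interval at Xkr9 on chromosome 1 from 13706436 had 3.51, 1.10 and 4.71 CPM in +/N440K and 3.92, 4.88 and 5.04 in +/+ libraries, and stayed out. An interval at Prim2 on chromosome 1 from 33663286 had 9.01, 1.10 and 3.77 CPM in +/N440K and 5.59, 4.88 and 3.10 in +/+ libraries, and was kept.

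The weak intervals had a median of 39 reads over the 6 libraries (range 11 to 90), against 139 (40 to 2987) in the normalized table. The median weak interval had 6, 5 and 6 reads in the +/N440K libraries and 6, 8 and 8 in the +/+ libraries. In CPM these medians were 3.00, 2.76 and 2.83 in +/N440K and 3.36, 3.01 and 3.10 in +/+. A value of this size rests on single-digit reads, so most differences at 1 weak interval were not detectable at this depth.

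Among the weak intervals, 13884 (45.4%) passed the level in no library, 9977 (32.6%) in 1 and 6749 (22.0%) in 2. Of those above it in 1 library, 1483, 1443 and 1488 were above it in the +/N440K libraries and 2266, 1616 and 1681 in the +/+ libraries. Of those above it in 2, the pair came from +/N440K in 1567 cases (a mean of 522 for each of 3 pairs), from +/+ in 2209 (736 for each of 3 pairs) and from both genotypes in 2973 (330 for each of 9 pairs). Pairs of 1 genotype thus shared more such intervals than mixed pairs did. Over the weak intervals, chi-square per degree of freedom between libraries was 1.20 to 1.23 within a genotype and 1.43 to 1.67 between genotypes, and no library was a copy of another.

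The weak intervals as a class took a smaller share of the reads in +/N440K thymocytes. The share was 8.98%, 8.65% and 9.33% in the +/N440K libraries and 9.96%, 9.81% and 10.1% in the +/+ libraries, and the groups did not overlap. The means were 8.99% ± 0.343 and 9.97% ± 0.158 (SD, n = 3 each), a difference of -0.979 percentage points (exact two-sided permutation test, p = 0.1, the smallest that 3 against 3 allows). At equal depth, by random thinning of each library to 1787899 reads, 2.34%, 2.48% and 2.27% of weak intervals had no read in the +/N440K libraries, against 1.16%, 1.15% and 0.964% in the +/+ libraries. These averaged 2.36% ± 0.107 and 1.09% ± 0.111 (SD, n = 3 each; exact permutation p = 0.1). With no thinning the shares were 1.75%, 2.40% and 1.45% in +/N440K and 1.16%, 0.252% and 0.284% in +/+ libraries. The 2 exact p-values were 0.1 after Benjamini-Hochberg adjustment as well.

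**Figure D1:**
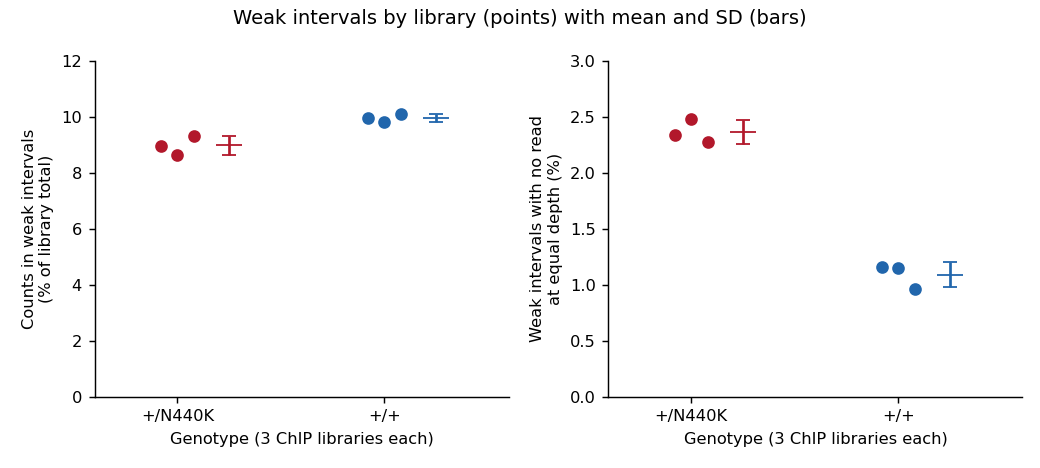
Each point is 1 ChIP library, with its genotype's mean and SD beside it (n = 3 each): the left panel shows the percentage of library reads in weak intervals, the right panel the percentage of weak intervals with no read after thinning to 1787899 reads. The +/N440K points lie below the +/+ points on the left (8.65% to 9.33% against 9.81% to 10.1%) and above them on the right (2.27% to 2.48% against 0.964% to 1.16%).

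The median log2 fold change, +/N440K over +/+, was -0.22 over the weak intervals (quartiles -0.70 and 0.32), with 61.3% of them below 0. It was 0.00 over the normalized table and -0.04 over all intervals. The two-sided test was edgeR's quasi-likelihood fit to the counts of all 93708 intervals, with library totals as sizes, Benjamini-Hochberg adjustment over all of them and a threshold of 0.05. It called 179 weak intervals, 0.585% of them, against 0.964% of all intervals and 1.15% of the normalized table. The weak intervals called higher in +/N440K numbered 74 (0.242%, against 0.383% of all intervals) and those called lower 105 (0.343%, against 0.581%). Both shares were below the background.

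The +/N440K and +/+ libraries did not overlap in 63 of the 74 called higher and in 101 of the 105 called lower. The background for this is 7.05% of weak intervals with +/N440K higher and 14.3% with +/N440K lower (7.81% and 10.8% of all intervals). Calls and overlap were read from the same 6 libraries. The lack of overlap among called intervals therefore largely follows from the call and is no separate evidence. The median fitted difference among called weak intervals was 6-fold higher and 5.96-fold lower, and the smallest was 1.55 on the log2 scale. At a median of 39 reads only large differences could pass the test, so these sizes follow from the read level and are not comparable with those of stronger intervals. The 74 called higher include the 6 intervals on Y, leaving 68.

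The direction split depended on the scaling: 74 higher and 105 lower with library totals, 82 and 90 with TMM factors, and 172 and 59 with offsets fitted to the level by loess, which put the weak median at -0.06. DESeq2 and limma voom called 0 weak intervals, with 1567 and 3725 at an unadjusted p under 0.05, against 4775 in edgeR. DESeq2 gave an adjusted p to 14259 weak intervals, of which 68 were among the 179. Leaving out 1 library left between 58 calls (without +/N440K replicate 1, 34 higher and 24 lower) and 138 (without +/+ replicate 1). In all 6 such fits 11 weak intervals were called, 6 higher and 5 lower, with 3 of the higher ones in Cdh13, and the other 168 lost their call in at least 1 fit.

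**Figure D2:**
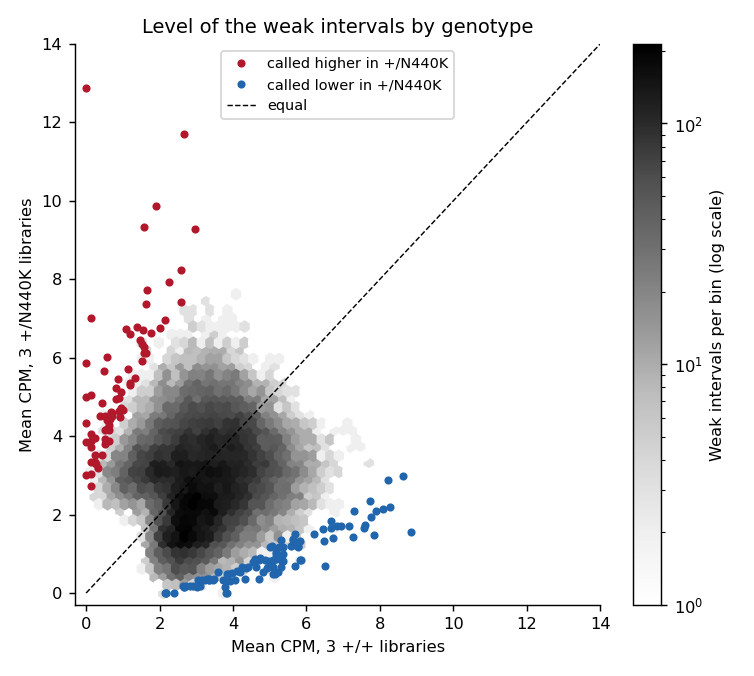
Each hexagonal bin counts weak intervals by mean CPM over the 3 +/N440K libraries (vertical axis) and over the 3 +/+ libraries (horizontal axis), with shade on a log scale. Red points are the 74 called higher in +/N440K and blue points the 105 called lower by edgeR's quasi-likelihood test, and the dashed line marks equal levels.

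An interval was counted to the gene whose body holds it, and otherwise to the nearest gene within 100 kb. Only protein-coding and constant-region genes of RefSeq were counted as genes here. Cdh13, which encodes T-cadherin, an adhesion molecule anchored in the membrane by a lipid, held the densest set of weak intervals called higher in +/N440K. The 1 Mb window of chromosome 8 from 118 to 119 Mb had 14 weak intervals, each in the gene body and each above 0, with a median log2 fold change of 2.48, and 10 of them were called. Summed over the 14, the level was 89.1, 45.8 and 90.9 CPM in the +/N440K libraries and 17.3, 8.64 and 13.6 CPM in the +/+ libraries. Replicate 2 was the lowest of the +/N440K libraries and still above each +/+ library. The same window had 4 intervals of the normalized table, and 4 of 4 were called higher, with a median of 3.01.

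Within Cdh13 the weak intervals differed in how evenly the +/N440K libraries shared the gain. The interval from 118508513 had 8, 11 and 17 reads in +/N440K and 1, 2 and 1 in +/+ libraries. Its fitted log2 fold change was 3.29 ± 0.64 (± is an SE back-calculated from the test statistic; adjusted p = 0.000995 by edgeR). At 118830439 there were 26, 5 and 26 reads in +/N440K, against 3, 3 and 5 in +/+ (2.56 ± 0.47, edgeR adjusted p = 0.000538). The interval from 118850479 had 16, 1 and 14 reads against 0, 1 and 0, so that +/N440K replicate 2 was at the level of +/+ replicate 2. Its ratio of CPM was 36.7, with an exact 95% counting interval of 6.12 to 1497. Another, from 118653511, had 14, 6 and 9 reads in +/N440K and 1, 1 and 1 in +/+ (3.35 ± 0.73, edgeR adjusted p = 0.00391), and its call was lost without +/N440K replicate 1 (adjusted p = 0.0805). The first 3 were called in each of the 6 fits that left out 1 library.

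Elsewhere the weak intervals called higher were scattered. The clearest lay on chromosome 1 from 108040931, with no protein-coding or constant-region gene of RefSeq within 100 kb. It had 2, 19 and 13 reads in +/N440K and 0, 0 and 0 in +/+ libraries. Against a floor of 3 reads over the +/+ libraries this was at least 13.4-fold higher (edgeR adjusted p = 8.07e-05), called in 6 of 6 fits that left out 1 library. The reads of +/N440K replicate 1 were few there. The interval at the Gm6093 start shown above, on chromosome 13 from 33569444 and 73.4 kb from Serpinb9g, of the serine protease inhibitor family, had 7, 7 and 9 reads in +/N440K and 0, 1 and 0 in +/+ libraries. Its ratio was 27.2 (95% counting interval 4.42 to 1122; edgeR adjusted p = 0.00392), with the +/N440K libraries close to each other, and it too was called in 6 of 6 fits.

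Necab1, a calcium-binding protein of neurons, had an interval on chromosome 4 from 15012445 with 5, 6 and 10 reads in +/N440K and 0, 1 and 1 in +/+ libraries. The ratio was 12.4 (95% counting interval 3.04 to 109; edgeR adjusted p = 0.0185), and the groups did not overlap. This call was lost in 4 of 6 fits that left out 1 library, with an adjusted p of up to 0.133 without +/N440K replicate 3. Near Dctd, which encodes a deoxycytidylate deaminase, an interval on chromosome 8 from 48092313 had 10, 13 and 0 reads in +/N440K and 0, 0 and 1 in +/+ libraries. The groups overlapped there, because +/N440K replicate 3 had no read, and the call was lost without +/N440K replicate 2 (adjusted p = 0.135), without replicate 1 and without +/+ replicate 2.

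One more interval called in 6 of 6 fits, named after its value was seen, lay on chromosome 7 from 64017160, 78.2 kb from Klf13, a Kruppel-family factor gene. It had 9, 14 and 17 reads in +/N440K and 1, 2 and 5 in +/+ libraries (2.51 ± 0.54, edgeR adjusted p = 0.00424), and the groups did not overlap.

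A stretch of chromosome 14 from 14513685 again had no protein-coding or constant-region gene within 100 kb. It had 7, 8 and 12 reads in +/N440K and 0, 1 and 2 in +/+ libraries, with 3.25 ± 0.75 on the log2 scale (edgeR adjusted p = 0.00738). Its call was lost without +/N440K replicate 3 (adjusted p = 0.0633). The ratio had a 95% counting interval of 3.28 to 54.9.

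Genes with at least 2 called weak intervals, a grouping chosen after the values were seen, included 3 more on the higher side outside Y. Adam19, a disintegrin metalloprotease gene, had 5 weak intervals, 5 of 5 above 0 and 2 called, with a median of 2.15. Summed over them the level was 21.5, 20.4 and 24.5 CPM in +/N440K and 7.83, 4.88 and 4.65 CPM in +/+ libraries. Gpr39, a zinc-sensing receptor gene, had 4, all above 0 and 2 called, at 17, 13.2 and 21.7 CPM in +/N440K against 5.59, 4.13 and 2.33 CPM in +/+. Its window on chromosome 1 from 125 to 126 Mb, which also holds the Lypd1 start shown above, had 12 weak intervals, 10 above 0 and 3 called. The 9 intervals of the normalized table in that window had 0 calls and a median of 0.30, against 1.49 for the weak ones. At the Klk1b22 start shown above there were 10, 11 and 3 reads in +/N440K and 0, 3 and 1 in +/+ libraries (log2 fold change 2.73, edgeR adjusted p = 0.0356). At the Lypd1 start itself there were 3, 9 and 11 reads in +/N440K and 2, 1 and 1 in +/+ libraries (log2 fold change 2.64, edgeR adjusted p = 0.0426). The calls at the Klk1b22 and Lypd1 starts were each lost in at least 1 of the 6 fits that left out 1 library.

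Elavl4, the gene of the neuronal RNA-binding protein HuD, had 5 weak intervals, 5 of 5 above 0 and 2 called. Summed over the 5, the level was 21.5, 16.5 and 22.1 CPM in +/N440K and 2.80, 16.2 and 3.10 CPM in +/+ libraries, so +/+ replicate 2 was close to the lowest +/N440K library. The one from 110285830 on chromosome 4 had 8, 4 and 16 reads in +/N440K and 1, 3 and 1 in +/+ libraries (log2 fold change 2.63 ± 0.67, edgeR adjusted p = 0.0221). That from 110134183, 69.4 kb outside the gene, had 12, 5 and 8 reads in +/N440K and 1, 2 and 1 in +/+ (2.77 ± 0.71, edgeR adjusted p = 0.023). Both calls were lost in at least 4 of the 6 fits that left out 1 library, with adjusted p of up to 0.27 without +/N440K replicate 3 for the first and 0.176 without +/N440K replicate 1 for the second. Of the 6 Elavl4 intervals kept in the normalized table, 3 were called higher.

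Sites near absent in one genotype and present in the other were few. Near absent was set at 1 CPM or less in each of 3 libraries, and present at 2.5 CPM or more in each of the other 3. In all, 12 weak intervals were present in +/N440K and near absent in +/+ (0.0392% of weak intervals, against 0.0139% of all intervals), and 27 were present in +/+ and near absent in +/N440K (0.0882%, against 0.0309%). The difference between 12 and 27 depended on depth and scaling: with every library thinned to 1787899 reads the counts were 19 in +/N440K and 18 in +/+, and with totals over the normalized table they were 14 and 16. The normalized table added 1 and 2 such intervals, against 12 and 27 among the weak intervals. With 3 libraries at 1 CPM or less, an interval stayed in that table only if each of the other 3 passed 4.85 CPM. The higher shares among weak intervals thus follow from how these were selected. Reads over the 3 libraries of a genotype had a median of 21 in +/N440K and 3 in +/+ for the first kind, and 3 in +/N440K and 27 in +/+ for the second. Since the pattern is set by the contrast itself it was not tested, and 8 of the 12 and 18 of the 27 were among the called intervals.

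The 12 present in +/N440K included both Cdh13 intervals from 118508513 and 118653511, the Gm6093 start, the sites at Necab1, near Elavl4 and on chromosome 14 from 14513685, and 6 more. An intragenic site of Tmprss2, a transmembrane serine protease gene, had 5, 6 and 9 reads in +/N440K and 0, 1 and 0 in +/+ libraries. One in Efcab11 had 8, 5 and 8 against 1, 1 and 1, and both were called (edgeR adjusted p = 0.0108 and 0.0337). Each of these calls was lost in at least 1 of the 6 fits that left out 1 library. The remaining 4, at Gzmb, in Nectin1, near Scrg1 and on chromosome 12 from 114898789, did not pass the test (edgeR adjusted p = 0.0559 to 0.0897). Gzmb encodes granzyme B, a protease of cytotoxic lymphocytes, and the interval abutting its gene body on chromosome 14 from 56262335 had 5, 8 and 6 reads in +/N440K and 1, 0 and 2 in +/+ (log2 fold change 2.75 ± 0.83, edgeR adjusted p = 0.0622).

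**Figure D3:**
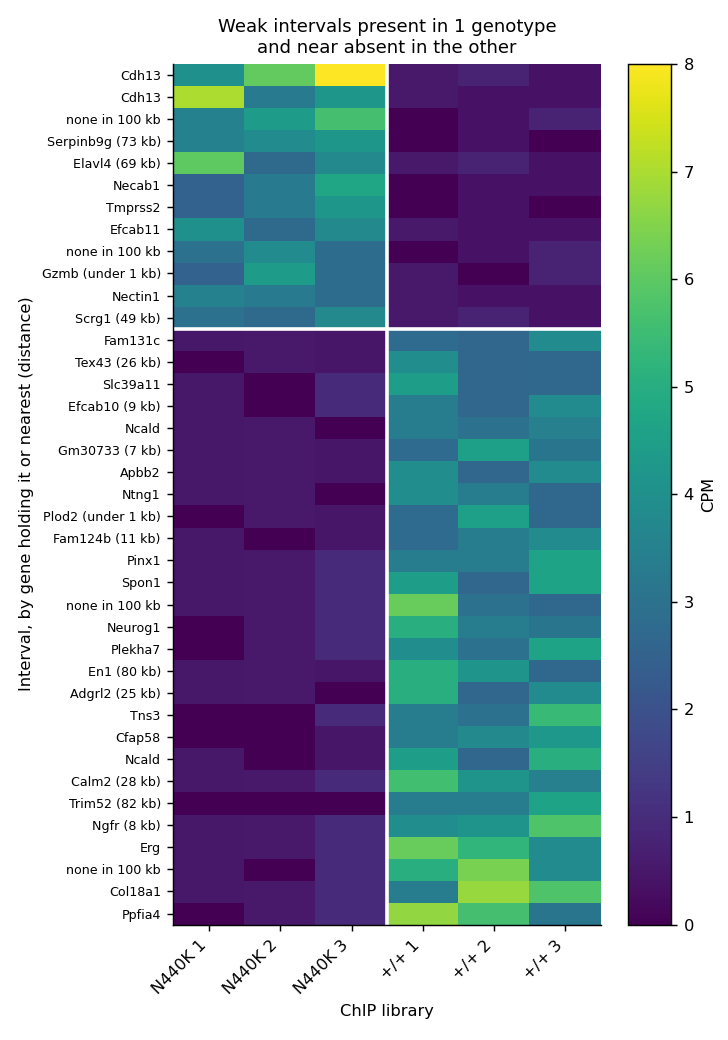
Each row is a weak interval present in 1 genotype (at least 2.5 CPM in each library) and near absent in the other (at most 1 CPM), labelled by the gene that holds it or the nearest within 100 kb, and each column is a ChIP library with colour for CPM. The upper 12 rows are present in +/N440K and the lower 27 in +/+, and single reads of 0.376 to 0.559 CPM make up most of the dark cells.

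Of the 27 present in +/+, 1 had no read in any +/N440K library. It lay on chromosome 14 from 106217745, 81.9 kb from Trim52, a RING-finger protein gene, with 0, 0 and 0 reads in +/N440K and 6, 9 and 12 in +/+ libraries. Against a floor of 3 reads over the +/N440K libraries it was at least 7.60-fold lower in +/N440K (edgeR adjusted p = 0.00145), and it was called in 6 of 6 fits that left out 1 library. A site with no gene within 100 kb, on chromosome 3 from 148389725, had 1, 0 and 2 reads in +/N440K and 9, 17 and 10 in +/+ (log2 fold change -3.20 ± 0.71, edgeR adjusted p = 0.00539), and was called in 6 of 6 as well.

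Col18a1, a basement-membrane collagen gene, had an interval on chromosome 10 from 77108156 with 1, 1 and 2 reads in +/N440K and 6, 18 and 15 in +/+ libraries (-2.92 ± 0.64, edgeR adjusted p = 0.00552). An interval in Ppfia4, a liprin gene, had 0, 1 and 2 reads in +/N440K and 12, 15 and 8 in +/+ (-3.17 ± 0.72, edgeR adjusted p = 0.00691), a call lost without +/N440K replicate 1 (adjusted p = 0.0794). The groups did not overlap at either. In Cfap58, a cilia gene, 0, 0 and 1 reads stood against 6, 10 and 11, a ratio of +/+ to +/N440K of 22.8 (95% counting interval 3.76 to 933; edgeR adjusted p = 0.00691). Without +/N440K replicate 1 its adjusted p was 0.0642. Near Ngfr, a neurotrophin receptor gene, there were 1, 1 and 2 reads in +/N440K and 7, 11 and 15 in +/+ (-2.69 ± 0.67, edgeR adjusted p = 0.018), lost in 4 of 6 fits, with adjusted p of up to 0.113 without +/+ replicate 3. Neurog1, a neuronal bHLH factor gene, had 0, 1 and 2 reads in +/N440K and 9, 9 and 8 in +/+ (-2.75, edgeR adjusted p = 0.0433). This call too was lost in at least 1 of the 6 fits.

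Weak intervals called lower in +/N440K were spread over 86 genes, with 59 of the 105 inside a gene body. Dysf, a membrane-repair protein gene, had 11 weak intervals, 11 of 11 below 0 and 2 called. The one on chromosome 6 from 84197324 had 2, 2 and 0 reads in +/N440K and 13, 11 and 21 in +/+ libraries (log2 fold change -3.15 ± 0.63, edgeR adjusted p = 0.00164; called in 6 of 6 fits without 1 library). Summed over the 11 weak intervals the level was 22.5, 18.2 and 17.4 CPM in +/N440K and 44.7, 44.7 and 48.4 CPM in +/+. Of the 9 Dysf intervals kept in the normalized table, 5 were called lower, with a median of -1.11 against -1.16 for the weak ones. Near Enox1, whose product is a cell-surface NADH oxidase, an interval had 1, 2 and 1 reads in +/N440K and 8, 17 and 16 in +/+ (-3.00 ± 0.63, edgeR adjusted p = 0.00312), and was called in 6 of 6.

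Several of the largest fitted changes rested on +/N440K groups with no read. Near Ipo5, an importin gene, there were 0, 0 and 0 reads in +/N440K and 4, 6 and 7 in +/+ libraries, at least 4.78-fold lower (edgeR adjusted p = 0.022). Near Adgrl4, an endothelial adhesion receptor gene, and near Cibar2, the +/N440K libraries again had no read, against 2, 4 and 10 and against 2, 9 and 5 in +/+, each at least 4.50-fold lower. Near S1pr3, a sphingosine-1-phosphate receptor gene, 0, 0 and 0 reads stood against 4, 1 and 10, at least 4.22-fold lower. These 4 calls held in 1 or 2 of 6 fits that left out 1 library, with adjusted p of up to 0.101 (Ipo5, without +/N440K replicate 1), 0.23 (Adgrl4, without +/+ replicate 3), 0.164 (Cibar2, without +/+ replicate 2) and 0.296 (S1pr3, without +/+ replicate 3). Near Npvf, a neuropeptide gene, 0, 0 and 1 reads in +/N440K stood against 8, 5 and 7 in +/+ (adjusted p = 0.0377 by edgeR, and 0.164 without +/N440K replicate 1). On chromosome 12 from 94195242, with no gene within 100 kb, 0, 1 and 0 stood against 7, 6 and 8 (adjusted p = 0.0301 by edgeR, and 0.149 without +/N440K replicate 3).

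Sox6 encodes a SoxD-family transcription factor. Its window on chromosome 7 from 115 to 116 Mb had 26 weak intervals, 25 below 0 and 3 called lower, with a median of -1.38. Their summed level was 48.6, 39.2 and 35.8 CPM in +/N440K and 96.8, 95.8 and 112 CPM in +/+ libraries. The 17 intervals of the normalized table in the window lay below 0 in 17 of 17 cases, 7 of them called, with a median of -1.19. Sox6 had 18 weak intervals in this window and the next, with 0 of 18 above 0.

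A window of chromosome 15 from 37 to 38 Mb held 36 weak intervals, 30 below 0 and 5 called lower, with a median of -0.73, at Grhl2, an epithelial transcription factor gene, and Ncald, the gene of the calcium sensor neurocalcin delta. The summed level was 65.6, 77.8 and 76.3 CPM in +/N440K and 106, 135 and 141 CPM in +/+ libraries. The Grhl2 interval from 37291414 had 0, 0 and 0 reads in +/N440K and 2, 9 and 18 in +/+, at least 8.16-fold lower in +/N440K (edgeR adjusted p = 0.00164). Its 3 +/+ libraries were far apart, and the call was lost without +/+ replicate 3 (adjusted p = 0.0636). The Ncald interval from 37763245, with 5, 1 and 3 reads in +/N440K and 5, 19 and 35 in +/+, was likewise lost without that library (log2 fold change -2.40 ± 0.51, edgeR adjusted p = 0.00373 with it and 0.183 without it). Of the 18 weak intervals at Ncald, 3 were above 0.

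Other windows with at least 3 called weak intervals were chromosome 1 from 170 to 171 Mb, chromosome 1 from 74 to 75 Mb and both ends of the Y stretch. In the first, with Atf6, Fcrla and Nos1ap, 23 of 26 weak intervals were below 0 and 3 called lower, at 57.6, 57.4 and 65.4 CPM in +/N440K and 103, 102 and 99.2 CPM in +/+ libraries. In the second the calls went both ways, with 1 higher near Cxcr2, a chemokine receptor gene, and 2 lower, in Wnt6, a Wnt ligand gene, and at the Cdk5r2 start shown above. Cdk5r2, which encodes an activator of CDK5, had 2, 2 and 1 reads in +/N440K and 11, 9 and 11 in +/+ (log2 fold change -2.33, edgeR adjusted p = 0.0448). Its call was lost in at least 1 of the 6 fits that left out 1 library.

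**Figure D4:**
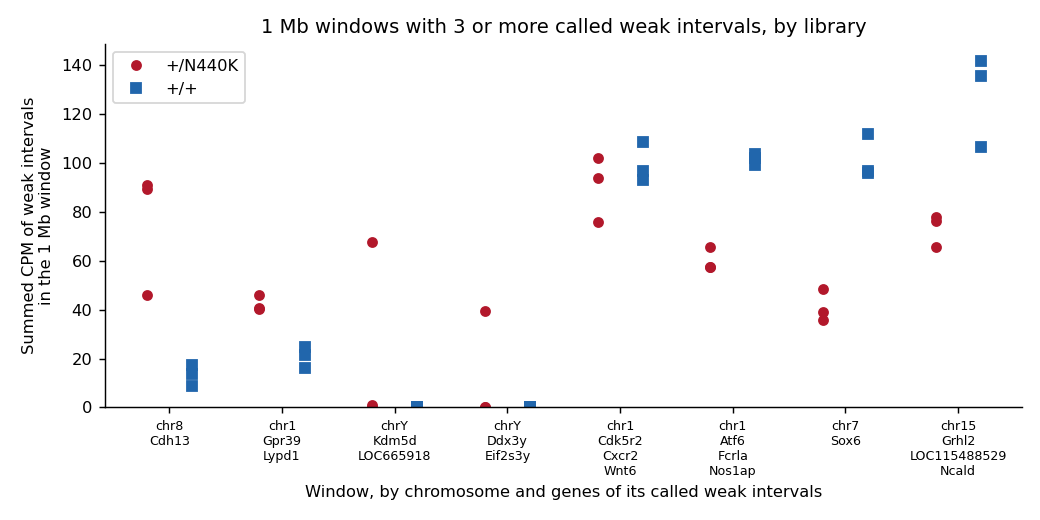
Summed CPM of the weak intervals in each 1 Mb window with 3 or more called weak intervals, by library, with +/N440K as circles and +/+ as squares (n = 3 libraries each). The Cdh13 window is higher in each +/N440K library (45.8 to 90.9 against 8.64 to 17.3 CPM), the Sox6 window lower (35.8 to 48.6 against 95.8 to 112 CPM), and the windows on Y have 1 +/N440K library above the rest.

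The intervals on Y called higher rested on 1 library. The interval from 259079 had 76, 1 and 0 reads in +/N440K and 0, 0 and 0 in +/+ libraries, and that from 145739 had 42, 0 and 0 against 0, 0 and 1. The Eif2s3y start shown above had 26, 0 and 0 reads in +/N440K and 0, 0 and 0 in +/+. Without +/N440K replicate 1 none of the 6 was called (edgeR adjusted p of 0.689 to 1). Its share of reads on X was the lowest of the 6 by a small margin. Weak intervals on X took 0.232%, 0.236% and 0.260% of the reads in +/N440K and 0.272%, 0.266% and 0.268% in +/+ libraries, and those of the normalized table took 1.17%, 1.25% and 1.22% in +/N440K and 1.22%, 1.23% and 1.21% in +/+. Whether this library's reads on Y bear on its other values was not tested, and the counts without it stand above.

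The gene lists covered 190 genes in 12 lists, with 571 weak intervals at or within 100 kb of them. Of these 4 were called, 2 higher and 2 lower, against 0.585% of all weak intervals, and the median log2 fold change was -0.28 against -0.22 for all weak intervals. At an unadjusted p under 0.05 there were 84. Of the 102 weak intervals of 16 T-lineage identity genes 0 were called (13 at an unadjusted p under 0.05), with 37 above and 65 below 0. In this list, Ets1, an ETS-family factor, had 1, 2 and 1 reads in +/N440K and 7, 8 and 11 in +/+ libraries (log2 fold change -2.36 ± 0.72, edgeR adjusted p = 0.0696). Themis, which acts in T-cell receptor signalling during selection, had 7, 6 and 7 reads in +/N440K and 2, 3 and 1 in +/+ (1.91 ± 0.69, edgeR adjusted p = 0.148). Neither passed the test, although the groups did not overlap at either.

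The 75 weak intervals of natural killer and innate lymphoid genes had a median of -0.42 and 1 call. It was in Zbtb16, the gene of PLZF, which directs innate-like T cells and innate lymphoid precursors. There, on chromosome 9 from 48696261, 1, 0 and 0 reads were found in +/N440K and 4, 10 and 7 in +/+ libraries, a ratio of +/+ to +/N440K of 17.7 (95% counting interval 2.85 to 733; edgeR adjusted p = 0.031). The groups did not overlap, but the call was lost in 5 of 6 fits that left out 1 library, with an adjusted p of up to 0.152 without +/N440K replicate 3.

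The 60 weak intervals of early progenitor genes had a median of -0.31 and 1 call, in Erg, an ETS-family factor of haematopoietic stem and progenitor cells. On chromosome 16 from 95434267 there were 1, 1 and 2 reads in +/N440K and 11, 14 and 10 in +/+ libraries (log2 fold change -2.79 ± 0.66, edgeR adjusted p = 0.0111), a call lost without +/N440K replicate 1 (adjusted p = 0.0754). Tal1, a bHLH factor of the same cells, did not pass, with 0, 3 and 2 reads in +/N440K and 4, 11 and 9 in +/+ (edgeR adjusted p = 0.161).

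The neuron list had 59 weak intervals and a median of 0.06, with the 2 Elavl4 intervals called higher. Cux1, a homeobox factor, had 5, 6 and 9 reads in +/N440K and 1, 3 and 1 in +/+ libraries and did not pass (edgeR adjusted p = 0.109). In the other 8 lists no weak interval was called. Set against 4775 of all 30610 weak intervals, 36 of the 275 in these 8 lists were at an unadjusted p under 0.05. Their medians were -0.43 in the Notch pathway (78 weak intervals), -0.40 in B cells (19), -0.35 in myeloid and dendritic cells (39), -0.28 in cofactors (43), -0.27 in maturation and egress (34), -0.25 in erythroid cells (4), -0.21 in housekeeping genes (20) and -0.11 in regulatory T cells (38). Notch2, a receptor, and Hes1, a target of that pathway, had its smallest p-values, at -1.94 ± 0.69 and -1.70 ± 0.62 (edgeR adjusted p = 0.143 and 0.161). The markers of B, myeloid and erythroid cells had 0 calls in either direction, over 19, 39 and 4 weak intervals, and lists this short limit what could be detected.

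Of the other genes with the smallest p in these 8 lists, those named here did not pass (edgeR adjusted p = 0.12 to 0.558). Values above 0 were found at Icos, a costimulatory receptor gene, with 7, 2 and 12 reads in +/N440K and 2, 2 and 3 in +/+ libraries, and at Cebpa, Gatad2a and Pgk1. Values below 0 were found at Foxo1, a factor of T-cell egress and quiescence, with 2, 2 and 5 reads in +/N440K and 11, 9 and 10 in +/+, and at Cxcr4, Nrp1, Bank1, Ebf1, Itgam, Epor, Mbd2 and Ywhaz. Mbd2, a methyl-CpG-binding subunit of NuRD, had 2, 0 and 4 reads in +/N440K and 8, 9 and 11 in +/+ (-1.93 ± 0.65, edgeR adjusted p = 0.12).

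Bcl11b itself had 7 weak intervals, 5 below 0, with 0 called and a median of -0.68. The one with the smallest p, on chromosome 12 from 107956740, had 6, 6 and 0 reads in +/N440K and 10, 15 and 11 in +/+ libraries (log2 fold change -1.31 ± 0.53, edgeR adjusted p = 0.222). The groups did not overlap, and +/N440K replicate 3 had no read. The 49 weak intervals of the 1 Mb around it, from 107 to 108 Mb, were below 0 in 40 cases with a median of -0.88 and 1 called lower. Their summed level was 116, 125 and 117 CPM in +/N440K and 201, 189 and 194 CPM in +/+. In the next windows the median was -0.67 over 25 weak intervals from 106 to 107 Mb and -0.27 over 36 from 108 to 109 Mb. Bcl11a, the paralogue's gene, had 2 weak intervals and 0 calls, the lower of them with 3, 8 and 4 reads in +/N440K and 8, 14 and 18 in +/+ (-1.14 ± 0.47, edgeR adjusted p = 0.233).

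Weak intervals lay farther from gene ends than the intervals of the normalized table did. They also lay farther from the nearest interval of that table than its intervals lay from each other. Of the weak intervals on placed chromosomes, 11.7% were within 1 kb of a gene end, 47.8% inside genes beyond that and 40.4% outside, against 34.3%, 37.6% and 28.1% in the normalized table. No gene lay within 100 kb of 7.61% of weak intervals, against 4.00%. The nearest interval of the normalized table was a median of 9864.5 bp away from a weak interval, against 368 bp between intervals of that table, and it was over 50 kb away for 12.4% against 2.45%. On chromosome X, 42.4% of intervals were weak, against 27.6% (chromosome 11) to 36.4% (chromosome 13) on the autosomes.

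Called weak intervals were placed as follows. Inside genes and over 1 kb from their ends lay 52.7% of those called higher and 48.6% of those called lower, against 47.8% of weak intervals. The nearest interval of the normalized table was over 50 kb away for 30 of the 74 called higher (40.5%) and 20 of the 105 called lower (19%), against 12.4% of weak intervals. The 74 include the 6 on Y and the 10 in Cdh13.

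**Figure D5:**
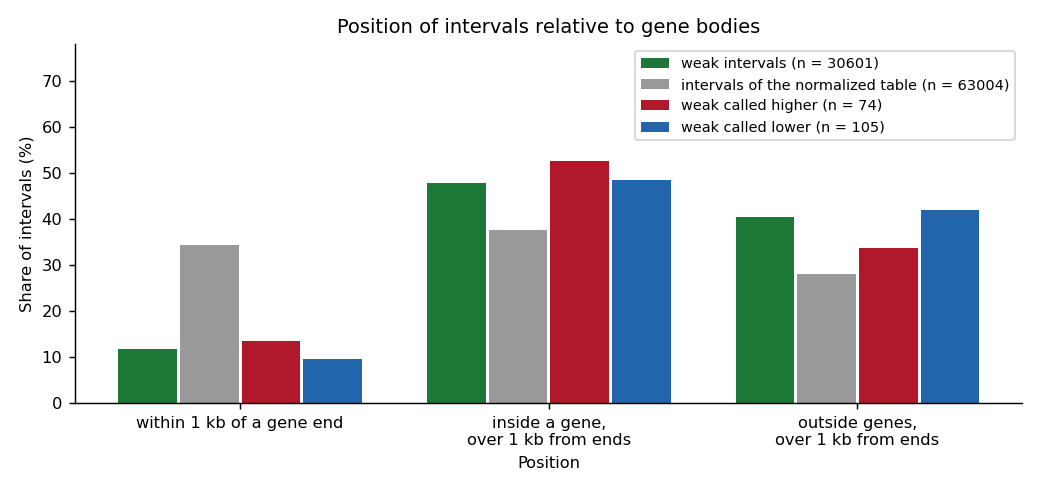
Share of intervals by position relative to gene bodies, for the weak intervals, the intervals of the normalized table and the weak intervals called higher or lower in +/N440K, with the number of intervals on placed chromosomes in the legend. Within 1 kb of a gene end were 11.7% of weak intervals and 34.3% of the normalized table.

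The nearest interval of the normalized table, whose reads did not enter a weak interval's call, mostly lay on the same side of 0. Within 1 kb, it lay in the same direction at 9 of 9 weak intervals called higher and 20 of 21 called lower, against 58.6% of the 6102 weak intervals with such a neighbour. Within 10 kb the counts were 19 of 21 and 45 of 50, against 56.0% of 15439. The neighbour was itself called in that direction at 6 of the 21 and 9 of the 50, against 228 of the 15439 (1.48%). Intervals this close can lie under 1 stretch of enriched chromatin and share fragments, so they are no independent replicate of each other. Some called intervals shared a neighbour, as those in Cdh13 from 118612987 and 118613200 did. The shares over all weak intervals include those with small changes, whose direction is uncertain, while called intervals were selected for large ones.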

How the data were processed

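Per the labels' protocols, thymocytes were fixed with 1% formaldehyde and chromatin was precipitated with an anti-Bcl11b antibody. Per the submitters' processing notes the build is mm10 and the tools include edgeR 3.38.2, MACS2, Bowtie2 2.3.5, fastp 0.20.0, bedtools and SAMtools 1.9. The sources used here do not give how and in which libraries peaks were called, and a step such as duplicate removal could lower counts. The authors deposited counts of reads per interval, with no normalization. The authors' deposited table of normalized counts (CPM) served here to find which intervals it leaves out. Raw counts of all 93708 intervals were fitted with edgeR 4.0.16 (glmQLFit, glmQLFTest; library totals as sizes, no filter, R 4.3.3), genotype as the one term. The SE of a fold change is the fitted coefficient without edgeR's prior count, on the log2 scale, divided by the square root of the test's F statistic. It thus restates the p-value and is no separate measure of spread. Limma 3.58.1 and DESeq2 1.42.0 served as alternatives. Scripts were tested on simulated data. Counting intervals are exact, at 95%, and cover counting error only, as do floors of 3 reads. Genes were 21920 protein-coding and constant-region genes of RefSeq (GRCm38.p6), assigned by the body holding an interval or the nearest within 100 kb. That table has no strand, so exons, introns and start sites were not told apart. No genome was used, so sequence came from RefSeq promoter windows, which lack some genes. The intervals named are, among those called, in each direction the 10 that changed most and the 5 of smallest p, the 6 of the pattern with the largest difference in each direction, the 2 genes with the smallest p in each list (1 of them is not reported here), and Bcl11b and Bcl11a. Others were named after their values were seen: genes and windows with several calls, promoter overlaps and further members of the pattern. The members and lists were chosen with earlier results of these data known. Alternatives were scaling, filter, tool, replicate block, chromosomes, thresholds and each library left out.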

Additional observations from a re-analysis of the deposited data

How the results depend on the processing

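The smaller share of reads in weak intervals and the larger share with no read kept their direction under the alternatives run, including each library left out. The count of called weak intervals stayed within 1.5 times of 179 under TMM or RLE factors (172), a minimum of 15 reads (179), without X, Y and unplaced sequences (188), without +/+ replicate 1 (138) or 2 (133), and in the fit with the replicate number as a block (156, of which 149 shared). Deviations from the group means had correlations of -0.00044, 0.0159 and 0.0410 between libraries with 1 number. They were -0.0293 to 0.0126 between libraries with different numbers. Correlations this small cannot decide whether the replicate numbers pair the libraries. With loess offsets 172 were higher and 59 lower, with 133 of 231 shared, and at an adjusted p of 0.01 there were 37, 21 higher and 16 lower. DESeq2 and limma voom called 0, 0 higher and 0 lower, and 0 at listed genes, with smallest adjusted p of 0.0979 and 0.0587. Leaving out 1 library gave 58 to 138 calls, 34 to 66 higher and 24 to 85 lower, and moved by over 1.5 times without +/N440K replicate 1 (58), 2 (119) or 3 (79) or +/+ replicate 3 (71). The pattern of presence in 1 genotype moved more: 86 sites (20 in +/N440K, 66 in +/+) at 1.5 and 3 CPM, 1 site (0 and 1) when near absent meant 0 reads, 16 in +/+ with totals over the normalized table, 19 in +/N440K after thinning, and 85 to 148 sites (21 to 53 in +/N440K, 49 to 126 in +/+) without 1 library, where fewer libraries had to meet the limits. The interval on Y from 145739 ranged from -1.80 to 6.89 on the log2 scale with 1 library left out, the lowest without +/N440K replicate 1 (adjusted p = 0.813). With 5 to 8 reads in a median weak interval per library, smaller changes at single intervals were not detectable. The cause of these shifts was not tested.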

Other observations

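At 1 level the +/N440K means of weak intervals had 2 crests of similar size. Among the 4156 weak intervals that averaged 2 to 2.5 CPM in the +/+ libraries, the +/N440K mean fell at 1.5 to 2 CPM in 587, at 2 to 2.5 CPM in 496 and at 3 to 3.5 CPM in 626. The levels above it had a single crest: at 1.5 to 2 CPM in +/N440K (1036 of 6055) where +/+ averaged 2.5 to 3 CPM, at 2 to 2.5 CPM (929 of 5702) where +/+ averaged 3 to 3.5 CPM, and at 2.5 to 3 CPM (733 of 4541) where +/+ averaged 3.5 to 4 CPM. At the lower level, where +/+ averaged 1.5 to 2 CPM, the main crest was at 3 to 3.5 CPM in +/N440K (498 of 1883). Below that crest lay a low shoulder, with 109 at 1 to 1.5 CPM, 106 at 1.5 to 2 CPM and 149 at 2 to 2.5 CPM. The sources used here do not give how the intervals were chosen before counting, and whether that choice bears on these counts was not tested.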
